A study of Mus musculus with 24 samples.

Results

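Follicular regulatory T (TFR) cells were compared with follicular helper T (TFH) cells from female NZBWF1/j mice that had received recombinant mouse OX40L and recombinant mouse JAG1. The comparison takes the 3 TFR and the 3 TFH libraries of the treated arm, 6 of the 24 libraries of the series, chosen by their labels alone. Mice were 23 weeks old, both proteins were injected i.p. on 3 weekly occasions, OX40L at 2 mg/kg and JAG1 at 2 mg/kg of body weight, and cells were collected in week 26. The control arm, alike in strain, age and sex, received PBS. TFH cells had been gated as CD4+ CXCR5+ cells with high PD1 and no or low GITR, and TFR cells as CD4+ CXCR5+ cells with high PD1 and high GITR. Among CXCR5- CD4+ cells, those with GITR were called Treg and those without it Tconv. The gates as described hold no Foxp3 stain. Tnfrsf18, the gene of GITR, was thus used to separate the groups and is no finding between them.

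TFH cells help B cells in germinal centres through CD40 ligand, IL-21 and other cytokines, and need the transcription factor Bcl6. TFR cells carry Foxp3, the transcription factor of regulatory T cells, together with the follicular chemokine receptor CXCR5, and restrain germinal centre reactions. NZBWF1/j mice develop a lupus-like disease with autoantibodies and nephritis. OX40L binds the receptor OX40, encoded by Tnfrsf4, and JAG1 is a ligand of Notch receptors.

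Library totals were 41695156, 50915959 and 35368089 counts for TFR 1, 2 and 3 and 34518156, 31805325 and 37781088 for TFH 1, 2 and 3. TFR 1 and TFH 3 held kidney RNA. The summed level of podocyte genes was 685, 17.7 and 16.6 CPM (counts scaled by library size) in TFR 1, 2 and 3 and 33.1, 29.7 and 1728 CPM in TFH 1, 2 and 3, and that of proximal tubule genes 239.6, 1.03 and 0.936 and 1.76, 2.76 and 612 CPM. Both sums were higher in TFH 3 than in TFR 1. A tested gene was counted as raised by it where each of these libraries stood at least 2-fold above both others of its group. This held for 1630 genes, of which 0 were called higher and 12 lower in TFR cells by edgeR's quasi-likelihood test. Of all tested genes 36.8% were called in either direction. The rule itself picks genes with a wide spread in both groups, so the low count does not show that the kidney RNA leaves the comparison unchanged. Counts are given with and without both libraries where they matter.

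Whether the 3 libraries of a group come from different mice is not stated in the labels. The p-values therefore reflect the spread among libraries within a group alone, which may be technical. Treated Tconv and Treg libraries enter that spread as well, since the test was fitted to the 12 treated libraries. The biological coefficient of variation within a group was 0.0723 in Tconv, 0.138 in Treg, 0.384 in TFH and 0.249 in TFR libraries. Those of TFH and TFR include the libraries with kidney RNA. In bulk RNA, fewer cells of a type and less RNA per cell cannot be told apart. T cell markers summed to 5966 to 6970.2 CPM in TFR and 6898 to 7953 CPM in TFH libraries. Of the genes of the CD8 chains, Cd8a was listed at 0 in all 6, and Cd8b1 was at 6.14, 9.43 and 6.99 CPM in TFR 1, 2 and 3 and at 2.71, 2.34 and 3.95 CPM in TFH 1, 2 and 3, higher in each TFR library. The defining B cell marker Ms4a1 was low, at 0.811, 0.553 and 0.468 CPM in TFR 1, 2 and 3 and at 2.85, 2.34 and 2.16 CPM in TFH 1, 2 and 3. The whole B cell list, which includes Ighm, summed to 1693 to 1947 and 1704 to 1956 CPM, and Ighm alone was at 1303, 1504 and 1518 CPM in TFR and 1724, 1498 and 1466 CPM in TFH libraries. Plasma cell genes summed to 999 to 1096 CPM in TFR and 1334 to 1580.2 CPM in TFH libraries, myeloid genes to 132 to 157 and 84.9 to 95.1 CPM, and genes of CD8 and NK cells, mostly Eomes, to 207 to 257 and 453 to 615 CPM. Endothelial genes summed to 513, 165 and 164 CPM in TFR 1, 2 and 3 and 325, 319.6 and 1326 CPM in TFH 1, 2 and 3, so that TFR 2 and 3 stood below TFH 1 and 2, the libraries without kidney RNA. Genes of red cells and platelets summed to 4.12 to 4.69 and 6.74 to 17.6 CPM. The part of these cells in the differences described here was not tested.

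**Figure D1:**
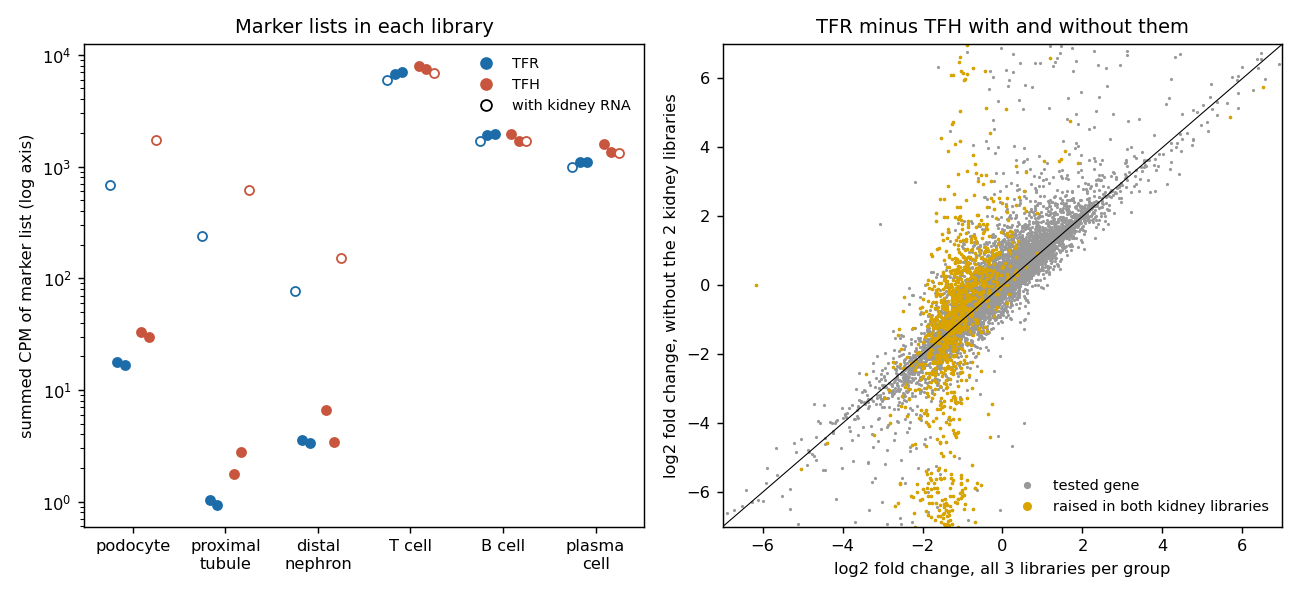
Left, summed CPM (log axis) of 6 marker lists in each TFR and TFH library of treated mice, with open circles for the libraries that hold kidney RNA; these stand apart for the 3 kidney lists and lie near the others for T, B and plasma cell genes. Right, log2 fold change of TFR minus TFH with all 3 libraries per group (x) against that without the 2 kidney libraries (y) for 17337 genes, with the line of equality and genes raised in both kidney libraries in yellow; 122 genes lie outside the axes.

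Which genes separate TFR from TFH cells in treated mice was asked across all genes, with edgeR fitted to the 12 treated libraries. Of 17920 genes tested, 3278 (18.3%) were called higher and 3316 (18.5%) lower in TFR cells at an adjusted p under 0.05, together 36.8%. The fold change was at least 1 on the log2 scale for 928 of the higher and 974 of the lower genes. Without TFR 1 and TFH 3, 3930 genes (22.2%) were higher and 3552 (20.1%) lower of 17694 tested, together 42.3%. Of the genes called with all libraries, 6044 were called again in the same direction without those and 0 in the opposite direction. With all libraries, the CPM values of the groups did not overlap for 43.4% of the tested genes. The median log2 fold change of all tested genes was -0.11. The count depends on which libraries enter the fit, and the cause of this was not tested. A fit over all 24 libraries called 1798 of 18789 genes, 866 higher and 932 lower, of which 1790 are among the calls above in the same direction. Its control TFR and TFH libraries are shallower, and control Tconv 1 and 2 hold kidney RNA. A fit to only the 6 libraries compared called 4683 of 16561 genes, 2320 higher and 2363 lower.

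**Figure D2:**
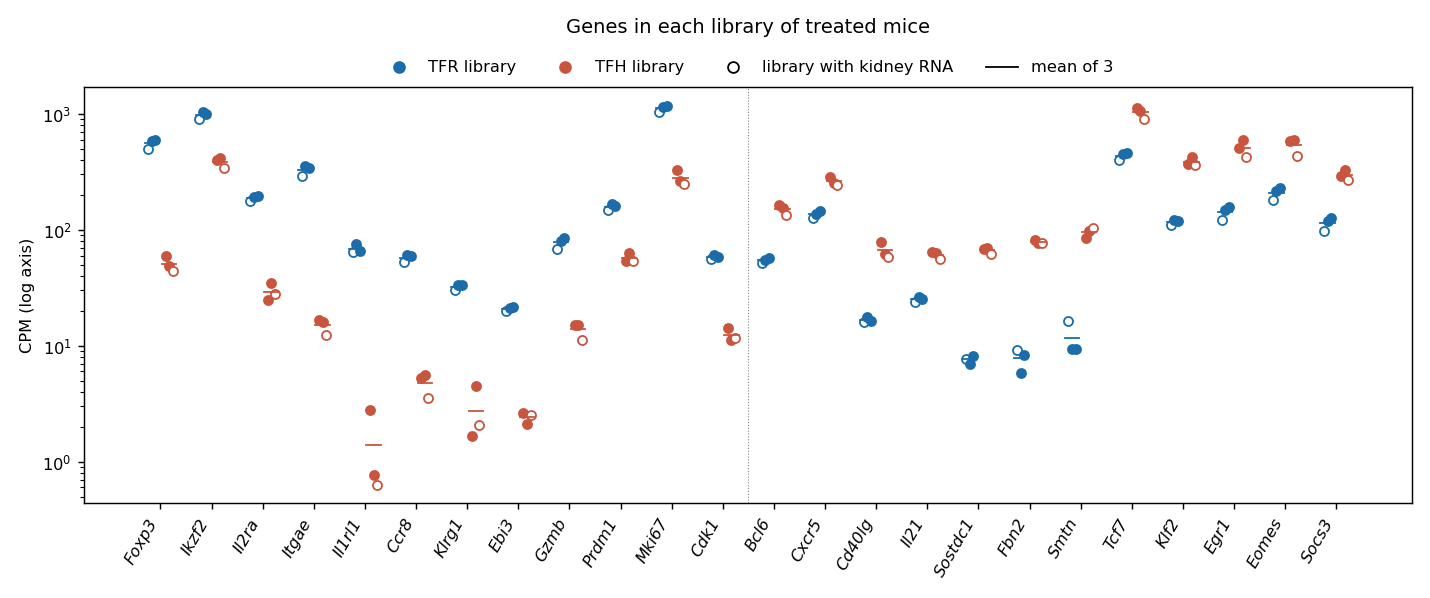
CPM (log axis) of 24 genes in each TFR and TFH library of treated mice, with lines at the mean of 3 and open circles for the libraries that hold kidney RNA. For the 12 genes left of the dotted line every TFR library stands above every TFH library, and for the 12 on the right every TFR library stands below.

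Genes of the regulatory T cell program were higher in TFR cells. Foxp3 was at 499, 587 and 598 CPM in TFR 1, 2 and 3 and at 59.8, 48.8 and 43.8 CPM in TFH 1, 2 and 3. The groups lay far apart, with a log2 fold change of 3.46 ± 0.12 (± SE from the fit, here and below; adjusted p = 5.2e-08). The TFH level was not 0: its mean of 50.8 ± 8.14 CPM stood beside 11.9 ± 1.08 CPM in Tconv cells, while TFR cells, at 561 ± 54.1 CPM, were close to Treg cells, at 549 ± 41.2 CPM (SD, n = 3).

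Of the 30 genes of that program, 24 were called higher and 1 lower in TFR cells, with a median log2 fold change of 1.54. The background for this list and each list below is all tested genes, of which 18.3% were higher and 18.5% lower in the fit of the 12 treated libraries. For counts from the fit over all 24 libraries it is 866 higher and 932 lower of 18789 genes. For counts without the libraries that hold kidney RNA it is 22.2% higher and 20.1% lower. The higher genes include Tnfrsf18, which the gate used. Il1rl1, the receptor of the alarmin IL-33, was at 64.3, 75.6 and 65.6 CPM in TFR and 2.76, 0.77 and 0.635 CPM in TFH libraries, a log2 fold change of 5.61 ± 0.45 (adjusted p = 5.64e-06). Itgae, which encodes the integrin chain CD103, was at 292, 353 and 342 CPM against 16.8, 16 and 12.3 CPM, a log2 fold change of 4.45 ± 0.15 (adjusted p = 4.2e-08). Both were near their Treg level in TFR cells, with Treg means of 74.4 ± 0.359 CPM for Il1rl1 and 329.7 ± 24.1 CPM for Itgae (SD, n = 3).

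Il2ra, the alpha chain of the high-affinity IL-2 receptor, was at 176, 191 and 197 CPM in TFR and 24.9, 34.8 and 28.2 CPM in TFH libraries, a log2 fold change of 2.68 ± 0.11 (adjusted p = 1.24e-07). Ikzf2, which encodes the Ikaros family factor Helios, was at 904, 1039 and 1006 CPM against 397, 414 and 343 CPM, a log2 fold change of 1.35 ± 0.091 (adjusted p = 1.75e-06). The TFR and TFH values of both genes did not overlap, and the TFH mean of Ikzf2, 384 ± 37 CPM, was above the Tconv mean of 48.8 ± 5.09 CPM (SD, n = 3). Klrg1, a receptor of differentiated effector cells, rose by 3.55 on the log2 scale, Ikzf4, a further Ikaros family factor, by 2.54, and Lrrc32, which holds latent TGF-beta on the cell surface, by 1.97.

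The 1 member called lower was Ikzf3, which fell by 0.26 on the log2 scale. Gpr83, Nt5e, Plagl1, Rel and Nrp1 did not pass, with log2 fold changes of 0.50, -0.014, -0.22, -0.015 and -0.15. Nrp1, a coreceptor found on many thymus-derived regulatory cells, was at 151, 109 and 114 CPM in TFR and 96.7, 90.3 and 226 CPM in TFH libraries. Its highest value in each group was in the library with kidney RNA, and without those libraries it was called higher in TFR cells, at 0.25 on the log2 scale (adjusted p = 0.00544). Without them the list gave 25 higher and 2 lower.

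Tnfrsf4, the receptor of the OX40L given to these mice, was at 377, 417 and 437 CPM in TFR and 98.3, 89 and 98.3 CPM in TFH libraries. Every TFR value was far above every TFH value, and the log2 fold change was 2.10 ± 0.073 (adjusted p = 4.2e-08). Other receptors of the TNF family rose as well: Tnfrsf1b, the second TNF receptor, by 2.38, Tnfrsf9 (4-1BB) by 2.37 and Tnfrsf8 (CD30) by 2.17 on the log2 scale. Tnfrsf18, which the gate used, had a log2 fold change of 2.28 ± 0.088.

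Of 24 co-stimulatory and co-inhibitory receptors, these included, 16 were higher and 3 lower in TFR cells, with a median of 0.50; the fit over all 24 libraries gave 10 and 1. Havcr2, the inhibitory receptor TIM-3, was at 74.4, 83 and 83.6 CPM in TFR and 12.9, 10.3 and 5.16 CPM in TFH libraries, a log2 fold change of 3.08 ± 0.29 (adjusted p = 1.36e-05). Tigit and Cd226, which compete for the same ligand, both rose, by 0.69 and 1.25. The lower members were Cd28, the co-stimulatory receptor that primes T cells, which fell by 0.87, and the paired molecules Tnfrsf14 and Btla, which fell by 0.53 and 0.44.

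Of the markers shared by both gates, Pdcd1 and Cd4 did not pass and Cxcr5 did. Pdcd1, which encodes PD1, was at 126, 151 and 149 CPM in TFR and 151, 149.8 and 136 CPM in TFH libraries. The values overlapped, with a log2 fold change of -0.041 ± 0.092 (adjusted p = 0.763), and Cd4 differed by -0.042 ± 0.083 (adjusted p = 0.732). Cxcr5 was lower in TFR cells without overlap, at 126, 136 and 146 CPM against 285, 255 and 244 CPM, a log2 fold change of -0.94 ± 0.094 (adjusted p = 2.17e-05).

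Of 24 mediators of suppression, 17 were called higher and 2 lower in TFR cells, with a median log2 fold change of 0.60, and 8 and 1 in the fit over all 24 libraries. Ctla4, which removes CD80 and CD86 from antigen-presenting cells, was at 756, 814 and 802 CPM in TFR and 409, 385 and 330.5 CPM in TFH libraries, a log2 fold change of 1.07 ± 0.077 (adjusted p = 2.6e-06). Ebi3, a subunit of IL-27 and IL-35, was at 20.1, 21 and 21.4 CPM against 2.65, 2.12 and 2.54 CPM, a log2 fold change of 3.09 ± 0.21 (adjusted p = 1.86e-06, and 0.0737 in the fit over all 24 libraries). Neither gene's groups overlapped. Gzmb, the protease granzyme B, was at 67.7, 80.5 and 85.6 CPM in TFR and 15.1, 15 and 11.3 CPM in TFH libraries, a log2 fold change of 2.49 ± 0.16 (adjusted p = 1.24e-06).

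Il10, an anti-inflammatory cytokine, was at 193, 216 and 224 CPM in TFR and 136, 139.9 and 117 CPM in TFH libraries. The gap was smaller but without overlap, at 0.68 ± 0.078 on the log2 scale (adjusted p = 5.39e-05, and 0.0589 in the fit over all 24 libraries). Treg cells had a mean of 56.5 ± 2.41 CPM and Tconv cells of 8.44 ± 0.62 CPM (SD, n = 3). Fgl2, a secreted suppressive protein, rose by 2.44, and Areg, a growth factor of tissue repair, by 1.21. The members that went the other way were Tgfb1, which encodes TGF-beta, and Prf1, which encodes perforin; they fell by 0.66 and 0.42.

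Genes of the follicular helper program were lower in TFR cells: 21 of 30 were called lower and 5 higher, with a median log2 fold change of -0.83, and 14 and 4 in the fit over all 24 libraries. Bcl6 was at 52.1, 54.6 and 57.5 CPM in TFR and 163, 155 and 135 CPM in TFH libraries, a log2 fold change of -1.47 ± 0.07 (adjusted p = 2.59e-07). Prdm1, which encodes Blimp-1, a repressor that opposes Bcl6, was at 149, 167 and 161 CPM against 54.3, 63.4 and 54.2 CPM, a log2 fold change of 1.47 ± 0.067 (adjusted p = 1.88e-07). The 2 genes thus went opposite ways, each without overlap.

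Sostdc1, a secreted antagonist of BMP and Wnt signals, was at 7.67, 7.01 and 8.15 CPM in TFR and 68.1, 69.4 and 61.5 CPM in TFH libraries, a log2 fold change of -3.13 ± 0.17 (adjusted p = 5.18e-07, and 0.0739 in the fit over all 24 libraries). Pou2af1, a transcriptional coactivator, and Tox2, an HMG-box factor, fell by 1.69 and 1.68, and the sphingosine phosphate receptor S1pr2 by 1.02. Sh2d1a, the adaptor SAP, and Ascl2, a helix-loop-helix factor, did not pass, at -0.039 and -1.58. The higher members were Slamf1, Batf, Irf4, Icos and Cd200, which rose by 1.01, 0.86, 0.65, 0.63 and 0.37. Icos, a co-stimulatory receptor that follicular T cells need, was at 507, 595 and 557 CPM in TFR and 402, 366 and 297 CPM in TFH libraries (adjusted p = 0.000483).

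Of 25 tested cytokine, chemokine and TNF family ligand genes, 10 were lower and 4 higher in TFR cells, beside 18.5% and 18.3% of all tested genes. The fit over all 24 libraries gave 5 and 0. Cd40lg, the ligand through which TFH cells activate B cells, was at 16.1, 17.6 and 16.4 CPM in TFR and 79.1, 62.1 and 58.3 CPM in TFH libraries, a log2 fold change of -1.996 ± 0.099 (adjusted p = 2.83e-07). Il21, the TFH cytokine that acts on germinal centre B cells, was at 24, 26.4 and 25.3 CPM against 63.9, 62.8 and 56.3 CPM, a log2 fold change of -1.27 ± 0.098 (adjusted p = 3.93e-06). Both groups of values were well apart for these genes.

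Ifng, the type 1 cytokine, was at 54.4, 58.4 and 57.7 CPM in TFR and 121, 109.8 and 96.8 CPM in TFH libraries, a log2 fold change of -0.95 ± 0.071 (adjusted p = 3.28e-06). Il4, which drives class switching, was low in both, at 3.4, 1.85 and 3.17 CPM against 9.82, 7.8 and 12.1 CPM (log2 fold change -1.82 ± 0.40, adjusted p = 0.00397, and 0.511 in the fit over all 24 libraries). Tnf, Tnfsf14 (LIGHT) and Fasl fell by 0.83, 0.999 and 0.69. The higher members were Il10, Ccl3, Ltb and Tnfsf11, of which the chemokine Ccl3 rose by 0.73. Il2 did not pass, at 1.25, 0.973 and 1.18 CPM in TFR and 1.5, 1.51 and 1.44 CPM in TFH libraries.

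Genes of IL-2 and STAT5 signalling went both ways, 10 higher and 7 lower of 20 (6 and 3 in the fit over all 24 libraries). The receptor chains Il2rb and Il2rg rose by 0.47 and 0.45, beside Il2ra. Cish, a feedback inhibitor induced by STAT5, was at 189, 228 and 226 CPM in TFR and 67.9, 66.7 and 56.6 CPM in TFH libraries, a log2 fold change of 1.75 ± 0.09 (adjusted p = 3.54e-07). Socs3, a feedback inhibitor of STAT3 signals, went the other way, at 97.9, 119.7 and 127 CPM against 291, 327 and 271 CPM, a log2 fold change of -1.37 ± 0.096 (adjusted p = 2.22e-06). The IL-6 receptor chains Il6ra and Il6st fell by 1.37 and 0.34.

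**Figure D3:**
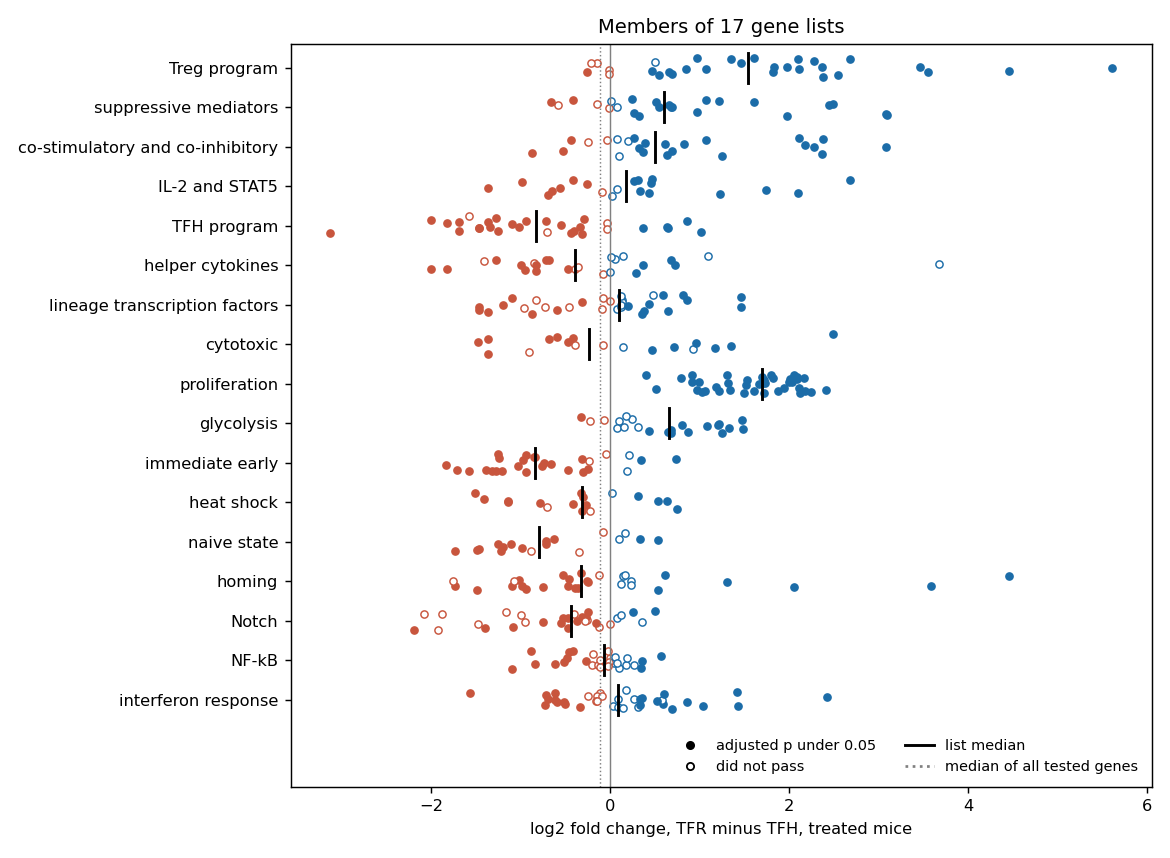
Log2 fold change of TFR minus TFH in treated mice for every tested member of 17 gene lists, filled where the adjusted p was under 0.05 and open where not; bars are list medians and the dotted line the median of all tested genes. All 40 proliferation genes lie right of 0, and 22 of 28 immediate early genes are filled to the left.

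Proliferation genes were higher in TFR cells as a whole list: all 40 were called, with a median log2 fold change of 1.70, and in 39 every TFR library stood above every TFH library, against 21.9% of all tested genes. All 40 were called again without the libraries that hold kidney RNA, while the fit over all 24 libraries called 23 higher and 0 lower. The promoters of 5 mitotic genes of the list, chosen after their values were seen, are shown because the list moved together. Each window is the 250 bases before the first start listed by RefSeq (GRCm38.p6), on the gene's strand. Capitals mark CCAAT, the box bound by NF-Y, and TTTGAA, the core of the cell cycle homology region, on either strand, so that they also appear as ATTGG and TTCAAA.
Cdk1, chr10:69352913-69353162, minus strand: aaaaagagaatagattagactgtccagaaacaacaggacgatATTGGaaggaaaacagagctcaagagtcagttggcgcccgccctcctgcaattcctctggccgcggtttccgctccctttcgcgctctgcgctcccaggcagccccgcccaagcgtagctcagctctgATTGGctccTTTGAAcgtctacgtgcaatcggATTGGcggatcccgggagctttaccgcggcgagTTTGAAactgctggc
Ccnb1, chr13:100786487-100786736, minus strand: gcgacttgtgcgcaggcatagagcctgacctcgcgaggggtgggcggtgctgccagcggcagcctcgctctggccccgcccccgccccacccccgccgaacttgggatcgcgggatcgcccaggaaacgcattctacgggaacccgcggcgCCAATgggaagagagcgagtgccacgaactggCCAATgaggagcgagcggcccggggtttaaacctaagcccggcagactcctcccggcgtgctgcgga
Ccnb2, chr9:70421555-70421804, minus strand: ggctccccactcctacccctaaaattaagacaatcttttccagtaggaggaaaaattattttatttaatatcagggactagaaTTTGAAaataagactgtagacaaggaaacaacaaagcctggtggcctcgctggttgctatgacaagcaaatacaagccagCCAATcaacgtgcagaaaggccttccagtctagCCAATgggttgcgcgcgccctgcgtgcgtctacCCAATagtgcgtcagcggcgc
Top2a, chr11:99024190-99024439, minus strand: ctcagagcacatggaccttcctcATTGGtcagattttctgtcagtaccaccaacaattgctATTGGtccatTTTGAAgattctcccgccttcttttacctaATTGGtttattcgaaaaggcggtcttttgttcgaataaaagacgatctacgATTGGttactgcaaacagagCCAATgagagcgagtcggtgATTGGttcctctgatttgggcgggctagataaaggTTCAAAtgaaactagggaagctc
Plk1, chr7:122159185-122159434, plus strand: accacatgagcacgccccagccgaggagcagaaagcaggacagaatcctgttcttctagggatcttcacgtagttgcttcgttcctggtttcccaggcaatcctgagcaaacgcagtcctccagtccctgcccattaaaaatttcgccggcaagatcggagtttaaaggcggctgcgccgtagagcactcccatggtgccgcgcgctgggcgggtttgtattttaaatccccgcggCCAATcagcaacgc
The windows of Cdk1 held 3 CCAAT and 2 TTTGAA matches, those of Ccnb1 2 CCAAT and 0 TTTGAA matches, of Ccnb2 3 CCAAT and 1 TTTGAA matches, of Top2a 6 CCAAT and 2 TTTGAA matches and of Plk1 1 CCAAT and 0 TTTGAA matches.

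Promoters were found in the RefSeq table for 33 of the 40 genes, and 26 of them (78.8%) held CCAAT, against 36% of the 11489 tested genes with a promoter and 34.5% of all 27025 promoters in the table. TTTGAA was in 10 (30.3%) of the proliferation promoters, against 10.8% and 16.3%. Among 2226 other genes called higher in TFR cells, 38.1% held CCAAT and 13.7% TTTGAA. A match of letters is a description of the window, not of binding.

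Cdk1, the kinase that drives entry into mitosis, was at 56.2, 61 and 58.2 CPM in TFR and 14.1, 11.2 and 11.7 CPM in TFH libraries, a log2 fold change of 2.24 ± 0.11 (adjusted p = 2.59e-07, and 0.0538 in the fit over all 24 libraries). Top2a, the topoisomerase of dividing cells, was at 451, 531 and 489.8 CPM against 159.8, 159.7 and 136 CPM, a log2 fold change of 1.69 ± 0.077 (adjusted p = 1.88e-07). The mitotic cyclins Ccnb1 and Ccnb2 rose by 2.03 and 1.95, and the mitotic kinase Plk1 by 1.73. Mki67, whose protein marks cycling cells, was at 1032, 1152 and 1163 CPM in TFR and 329.6, 261 and 247 CPM in TFH libraries, each TFR library above each TFH library. At the ends of the list stood Aurkb, a kinase of chromosome segregation, at 2.41, and Pcna, the replication clamp, at 0.40, while Ccne2, a cyclin of S phase entry, was the 1 member whose groups overlapped.

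Glycolysis genes were higher for 13 of 22 and lower for 1, with a median log2 fold change of 0.66. Tpi1, triosephosphate isomerase, was at 341, 382 and 397 CPM in TFR and 138, 131 and 132 CPM in TFH libraries, a log2 fold change of 1.48 ± 0.078 (adjusted p = 4.02e-07). Ldha, which makes lactate, was at 765, 843 and 869.6 CPM against 386, 339.8 and 340.1 CPM, a log2 fold change of 1.21 ± 0.083 (adjusted p = 1.96e-06). Neither pair of groups overlapped. The glucose transporter Slc2a3 rose by 1.33 (adjusted p = 0.184 in the fit over all 24 libraries) and Slc2a1 did not pass, at 0.1.

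Immediate early genes, transcribed within minutes of a stimulus, were lower in TFR cells for 22 of 28 and higher for 2, with a median of -0.84. Egr1, a zinc finger factor induced by receptor signals, was at 121, 149 and 156 CPM in TFR and 505, 589 and 424 CPM in TFH libraries, a log2 fold change of -1.83 ± 0.12 (adjusted p = 1.25e-06). Fos, a subunit of AP-1, was at 741, 844 and 869 CPM against 2044, 2050.4 and 1823 CPM, a log2 fold change of -1.27 ± 0.089 (adjusted p = 2.21e-06). Every TFR value of both lay below every TFH value. The nuclear receptors Nr4a1, Nr4a2 and Nr4a3 fell by 0.66, 1.32 and 1.25, and Dusp2 and Dusp6, phosphatases that shut off MAP kinases, by 1.21 and 0.94. Myc, a driver of growth, and Dusp4 rose by 0.74 and 0.35.

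Heat shock genes were lower for 10 of 17 and higher for 4 (7 and 2 in the fit over all 24 libraries). Hspa1a, an inducible HSP70, was at 649, 774 and 832 CPM in TFR and 2301, 2149 and 1972 CPM in TFH libraries, a log2 fold change of -1.51 ± 0.11 (adjusted p = 3.31e-06); it is nearly identical to Hspa1b, so the split of reads between them is uncertain. Dnajb1, a cochaperone of HSP70, fell by 1.14. The higher members were Hsp90b1, a chaperone of the endoplasmic reticulum, the mitochondrial chaperones Hspd1 and Hspe1, and Hspa4, which rose by 0.74, 0.63, 0.54 and 0.31. Heat shock and immediate early genes can also respond to cell handling, whose part here was not tested.

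Genes of the naive state were lower for 11 of 18 and higher for 2, and homing genes lower for 15 of 29 and higher for 6 (8 and 3 in the fit over all 24 libraries). In the fit of the 12 treated libraries, 18.5% of all tested genes were lower and 18.3% higher. Klf2, which drives the genes of lymphocyte recirculation, was at 109.7, 122 and 119.5 CPM in TFR and 372, 425 and 365 CPM in TFH libraries, a log2 fold change of -1.73 ± 0.072 (adjusted p = 1.24e-07). Tcf7, which encodes TCF-1, was at 399, 447 and 457 CPM against 1133, 1057 and 910.1 CPM, a log2 fold change of -1.25 ± 0.088 (adjusted p = 2.2e-06). Neither gene's groups overlapped. S1pr1, the receptor for egress, fell by 0.98.

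Ccr7, the receptor that leads to the T cell zone, went the other way from most naive genes and rose by 0.53. Ccr8, a chemokine receptor of activated regulatory cells, was at 52.8, 60.4 and 59.6 CPM in TFR and 5.24, 5.55 and 3.58 CPM in TFH libraries, a log2 fold change of 3.58 ± 0.18 (adjusted p = 2.93e-07). Ccr6 and Gpr15, receptors of mucosal homing, rose by 2.06 and 1.31, while Ccr4 fell by 0.40. Cxcr3, Cxcr4 and Cxcr6 did not pass, at -0.13, 0.14 and 0.16.

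Genes of the Notch pathway, to which the JAG1 given belongs as a ligand, were lower for 13 of 30 tested and higher for 2, and 4 and 1 in the fit over all 24 libraries. Notch1 was at 360.4, 382 and 383 CPM in TFR and 489, 519 and 548 CPM in TFH libraries, a log2 fold change of -0.47 ± 0.061 (adjusted p = 0.000125), and Notch2 fell by 0.37. Nrarp, a feedback target of Notch, was at 9.36, 9.79 and 8.01 CPM against 27.4, 19.5 and 24.2 CPM, a log2 fold change of -1.39 ± 0.15 (adjusted p = 3.87e-05). Each TFR value of these 2 genes lay below each TFH value.

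Dtx1, also a Notch target, was at 95.2, 121 and 133 CPM in TFR and 172, 177 and 153 CPM in TFH libraries (log2 fold change -0.52 ± 0.12, adjusted p = 0.00493, and 0.794 in the fit over all 24 libraries). Hes1, a transcriptional target, was at 4.71, 0.63 and 0.743 CPM against 1.12, 1.06 and 14.7 CPM and did not pass. Its highest value in each group was in the library with kidney RNA, as it was for Notch3, Notch4, Dll4, Jag1 and Jag2, which did not pass either. Psen2, a catalytic subunit of gamma-secretase, and Adam17, a sheddase, rose by 0.50 and 0.25.

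NF-kB genes were lower for 9 of 28 and higher for 3, against 18.5% and 18.3% of all tested genes, together 36.8%. Their median was -0.067 against -0.11. In the fit over all 24 libraries 6 were lower and 2 higher, beside 932 and 866 of all 18789 genes. Without the libraries that hold kidney RNA they were 11 and 6, beside 20.1% and 22.2% of all tested genes. Map3k14, the kinase of the non-canonical branch on which OX40 can act, was at 36, 40.8 and 44 CPM in TFR and 69.6, 75 and 70.5 CPM in TFH libraries, a log2 fold change of -0.84 ± 0.081 (adjusted p = 1.78e-05). Nfkb1 and Nfkb2 did not pass, at 0.045 and -0.021.

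Interferon-stimulated genes were split, 12 higher and 10 lower of 36 (4 and 1 in the fit over all 24 libraries). Ly6a (Sca-1) and Gbp7, a guanylate-binding protein, rose by 1.43 and 1.41. Irf7, the amplifier of type I interferon, and Ifih1, an RNA sensor, fell by 0.70 and 0.59 (adjusted p = 0.146 for Ifih1 in the fit over all 24 libraries).

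Of 32 lineage transcription factors, 10 were higher and 8 lower. Eomes, a T-box factor of cytotoxic and memory cells, was at 182, 217 and 227 CPM in TFR and 579, 598 and 437 CPM in TFH libraries, a log2 fold change of -1.37 ± 0.11 (adjusted p = 6.31e-06). The related Tbx21 (T-bet) and the repressor Bach2 fell by 1.10 and 1.19, and the ligand-activated factor Ahr rose by 1.46. Gata3, a factor of type 2 cells, did not pass, at 0.13. Cytotoxic genes were split, 6 higher and 7 lower of 18 (2 and 1 in the fit over all 24 libraries): Gzmb and Gzma rose by 2.49 and 1.17, while Gzmm and Gzmk fell by 1.47 and 0.59.

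Several list members named above as higher or lower were not called in the fit over all 24 libraries, beyond those marked so: Ikzf3, Tnfrsf8, Cd226, Tnfrsf14, Btla, Fgl2, Prf1, S1pr2, Cd200, Tnfsf14, Fasl, Ccl3, Ltb, Tnfsf11, Il2rg, Ccnb1, Ccnb2, Plk1, Ccne2, Dusp4, Hspe1, Hspa4, Ccr6, Gpr15, Ccr4, Notch2, Adam17, Tbx21, Gzma, Gzmm and Gzmk, with adjusted p of 0.0531 to 0.892 there.

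By size of change, the 10 genes of largest rise under the naming rule were Il1rl1, Itgae, Ccr8, Il1rn, Klrg1, Atp6v0d2, Foxp3, Gpr55, Ermn and Ebi3. Of these, Il1rn, Ermn and Ebi3 were not called in the fit over all 24 libraries (adjusted p = 0.213 for Ermn). Il1rn, which encodes the antagonist of the IL-1 receptor, was at 18.7, 22 and 17.1 CPM in TFR and 1.12, 2.34 and 1.44 CPM in TFH libraries, a log2 fold change of 3.55 ± 0.31 (adjusted p = 3.19e-05, and 0.111 in the fit over all 24 libraries). Treg cells had 2.39 ± 0.404 CPM (SD, n = 3), below every TFR library. Atp6v0d2, a subunit of the vacuolar proton pump, was at 19.2, 22.4 and 23 CPM in TFR and 1.93, 1.83 and 1.76 CPM in TFH libraries, and Treg cells stood above both, at 54.5 ± 3.57 CPM (SD, n = 3).

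The 10 of largest fall were Mapk10, Kcnc1, Cntn1, Rph3a, Scn11a, Fbn2, Samd3, Adamts3, Sostdc1 and Smtn. In the fit over all 24 libraries 6 of them were not called: Mapk10 (adjusted p = 0.0819), Cntn1 (0.0678), Scn11a (0.0653), Samd3 (0.0589), Adamts3 (0.0795) and Sostdc1 (0.0739). Fbn2, which encodes the matrix protein fibrillin 2, was at 9.25, 5.86 and 8.31 CPM in TFR and 80.8, 77.5 and 76.3 CPM in TFH libraries, a log2 fold change of -3.33 ± 0.16 (adjusted p = 2.59e-07). Smtn, an actin-binding protein best known from smooth muscle, was at 16.4, 9.35 and 9.36 CPM against 84.4, 98.6 and 103 CPM, a log2 fold change of -3.03 ± 0.22 (adjusted p = 2.94e-06). TFH cells were the subset with the most of both, since Treg and Tconv cells had 4.45 ± 0.1 and 1.76 ± 0.214 CPM of Fbn2 and 9.09 ± 0.526 and 5.28 ± 1 CPM of Smtn (SD, n = 3). Kcnc1, Cntn1, Rph3a and Scn11a, best known from neurons, ranged from 4.59 to 10.4 CPM in TFH and from 0.197 to 1.18 CPM in TFR libraries.

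**Figure D4:**
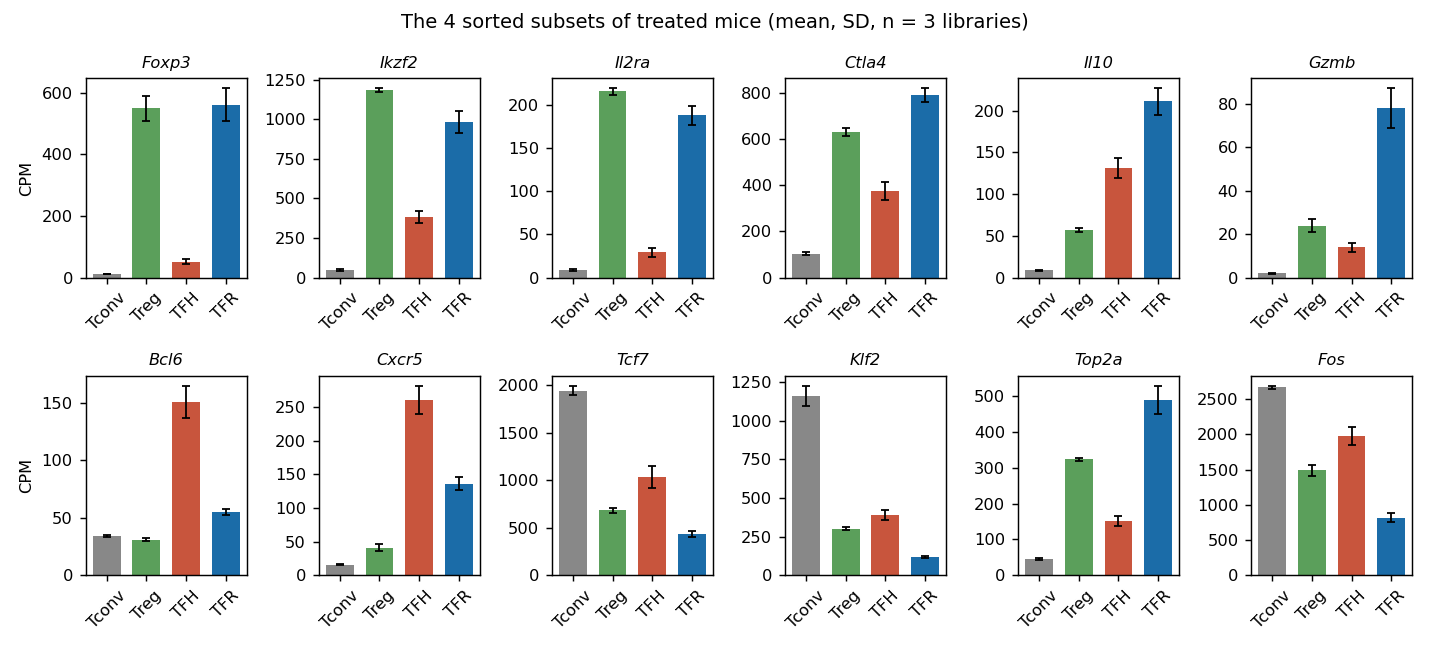
Mean CPM (bars from 0, each panel on its own scale) with SD (n = 3 libraries) of 12 genes in Tconv, Treg, TFH and TFR cells of treated mice. Foxp3, Ikzf2 and Il2ra are high in Treg and TFR cells, Bcl6 and Cxcr5 are highest in TFH cells, Il10, Gzmb and Top2a are highest in TFR cells, and Tcf7, Klf2 and Fos are highest in Tconv and lowest in TFR cells.

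Whether the step from TFH to TFR cells differs from the step from Tconv to Treg cells in the same treated arm was tested as the difference of the 2 log2 fold changes. Of 17920 genes, 2952 (16.5%) had a higher and 3226 (18%) a lower value for the follicular step, together 34.5%. Without the libraries that hold kidney RNA the shares were 21% higher and 21.8% lower, together 42.7%. Treated Treg 3, with a podocyte sum of 194 CPM against 23.4 and 24.5 CPM in Treg 1 and 2, was below the limit for kidney RNA and was kept; leaving it out as well gave 7232 genes. Of the 30 regulatory program genes, Tnfrsf18 among them, 0 had a higher and 25 a lower value. Foxp3 had a log2 fold change of 5.53 from Tconv to Treg cells and of 3.46 from TFH to TFR cells, a difference of -2.07 (adjusted p = 5.75e-06). The difference was -3.25 for Ikzf2 (adjusted p = 7.37e-08) and -1.997 for Il2ra (adjusted p = 4.7e-06). Tconv cells had less of these genes than TFH cells. For Il1rl1 the steps were 5.28 and 5.61, and the difference of 0.32 did not pass (adjusted p = 0.685).

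Of the 40 proliferation genes, 26 had a lower and 6 a higher value for the follicular step, and of the 18 naive genes 1 and 12. Ccr7 was higher in TFR than in TFH cells and lower in Treg than in Tconv cells, with a log2 fold change of -2.56 there, a difference of 3.09 (adjusted p = 7.37e-08). Its means were 151 ± 12.9, 104 ± 10.04, 183 ± 14.1 and 1082 ± 40.9 CPM in TFR, TFH, Treg and Tconv cells (SD, n = 3), so Tconv cells stood apart. The same held for Igfbp4, which binds insulin-like growth factors, and Ifngr2, a chain of the interferon gamma receptor: Tconv cells had 428 ± 14.4 and 88.2 ± 3.07 CPM, and TFR cells 9.48 ± 2.38 and 9.61 ± 0.998 CPM.

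The 2 steps share no library. Of the 3278 genes higher in TFR cells, 1251 were higher and 705 lower in Treg than in Tconv cells, where 3468 (19.4%) were called higher and 3495 (19.5%) lower of all, together 38.9%. Of the 3316 genes lower in TFR cells, 1251 were lower and 550 higher there.

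Whether the gap between TFR and TFH cells differed between treated and control mice was tested over all 24 libraries as the difference of the 2 log2 fold changes. Of 18789 genes, 620 (3.3%) had a higher and 705 (3.75%) a lower TFR minus TFH value in treated mice, 1325 (7.05%) in all. These values keep their sign, so for a gene lower in TFR cells of both arms a lower value is a wider gap. Without the libraries that hold kidney RNA 462 (2.25%) were called, 1.14% higher and 1.11% lower. Besides TFR 1 and TFH 3, these were control Tconv 1 and 2, with podocyte sums of 1500.3 and 1491 CPM, which enter this test through the spread and the scaling alone. The count was 660 without treated TFR 3 and 2328 without control TFH 3. Control TFR and TFH libraries held 2537901 to 15234765 counts. The mitochondrial share of counts was 2.18 to 3.17% in treated and 9.81 to 16.9% in control TFR and TFH libraries. B cell genes summed to 1693 to 1956 and 317 to 591 CPM, plasma cell genes to 999 to 1580.2 and 172 to 286 CPM, and genes of CD8 and NK cells to 207 to 615 and 21 to 56.2 CPM. None of these ranges overlapped between the arms, and their part in the differences was not tested. Treatment and any difference in handling between the arms cannot be told apart.

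Il2ra had a wider gap in treated mice by 1.89 on the log2 scale (adjusted p = 0.000141, and 0.00151 without the kidney libraries). Its means were 188 ± 11 and 29.3 ± 5.03 CPM in treated and 66.8 ± 3.61 and 37.9 ± 13.6 CPM in control TFR and TFH cells (SD, n = 3). Tnfrsf4 had a wider gap by 1.22 (adjusted p = 0.00069, and 0.00276 without the kidney libraries), on means of 410.3 ± 30.5 and 95.2 ± 5.37 CPM in treated and 267 ± 54.5 and 143 ± 29.6 CPM in control mice. For both receptors the treated TFR mean was the highest of the 4.

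Bcl6 differed by -0.91 (adjusted p = 0.00271, and 0.0186 without the kidney libraries), on means of 54.8 ± 2.7 and 151 ± 14.2 CPM in treated and 141 ± 15.5 and 208 ± 29.9 CPM in control TFR and TFH cells (SD, n = 3). For Il21 the difference of -1.53 passed with all libraries (adjusted p = 0.0466) and not without the kidney libraries (adjusted p = 0.149). Foxp3 differed by 0.59 and did not pass (adjusted p = 0.183), which does not show that its gaps are alike. Of the 30 regulatory genes 6 had a higher and 1 a lower TFR minus TFH value, with its sign, in treated mice. The counts were 1 and 8 of the 30 TFH program genes and 6 and 2 of the 40 proliferation genes.

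In control mice alone, 7.82% of 18789 tested genes were called higher and 8% lower in TFR cells, together 15.8%. Of the lists, 22 of the 30 regulatory genes were higher and 1 lower in TFR cells, 21 of the 40 proliferation genes were higher and 1 lower, and 9 of the 30 TFH program genes were lower and 4 higher.

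Gene positions follow GENCODE M21 on mm10: Foxp3 lies at chrX:7573644-7595245, Tnfrsf4 at chr4:156013843-156016612, Il1rl1 at chr1:40429570-40465415, Bcl6 at chr16:23965052-23988852 and Cd40lg at chrX:57212143-57224042. The strand setting of the counting is not given in the sources used here. Exons of Foxp3, Tnfrsf18, Bcl6, Eomes, Ikzf2, Ikzf4, Plagl1, Nrp1, Cxcr5, Ebi3, Sh2d1a, Il21, Ifng, Il2rg, Cish, Il6ra, Top2a, Plk1, Ccne2, Tpi1, Slc2a1, Hspa1a, Hsp90b1, Hspd1, Hspe1, Gpr15, Notch1, Notch2, Nrarp, Notch3, Dll4, Adam17, Map3k14, Nfkb2, Gbp7, Irf7, Bach2, Ahr, Gata3, Gpr55, Ermn, Fbn2, Smtn, Slc7a10, Spaca6, Slc16a5, Gfra4 and Mypop overlap those of another annotated gene on either strand. Reads of the 2 cannot be told apart there, or only by strand.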

How the data were processed

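Per the labels' protocols, RNA of sorted cells was purified on columns with DNase treatment, depleted of ribosomal RNA and made into CORALL total RNA libraries. The reads were handled with STAR, featureCounts and mm10, per the submitters' processing notes. No version, annotation release or strand setting is stated for them. The deposited table holds raw counts of 39056 genes, not normalized, of which 38872 matched GENCODE M21 by gene ID. Groups follow the labels. CPM are counts over TMM effective library sizes of all 24 libraries.

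Genes were tested with edgeR 4.0.16 (R 4.3.3): filterByExpr, TMM scaling, quasi-likelihood F tests, two-sided, Benjamini-Hochberg adjustment over all tested genes, threshold 0.05. TFR against TFH, and its difference from Treg against Tconv, were fitted to the 12 treated libraries with 4 group means and 8 residual degrees of freedom, and the difference between treated and control mice to all 24. The spread comes from 3 libraries per group. A library was counted as holding kidney RNA where its podocyte sum exceeded 10 CPM and was 10 times or more that of the lowest library in the group. Alternatives were RLE scaling, no filter, DESeq2 1.42.0, limma 3.58.1 (voom), other sets of libraries, a replicate block and leaving out each library. On simulated data, in genes of at least 10 CPM, changes of 1 and 2 on the log2 scale were recovered for 85% and 95% of genes for TFR against TFH. For its difference from Treg against Tconv they were recovered for 59% and 94%, and for the difference between treated and control mice for 27% and 62%. Where nothing had changed, 2 draws gave 21 and 28, 4 and 0, and 223 and 215 false calls, in the same order. The count for treated against control mice is thus the least firm.

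The comparison, the 17 pathway lists and 10 marker lists were chosen with earlier results of these data known. Named genes were up to 10 per direction by log2 fold change (5 per direction for each difference), past the threshold with and without the kidney libraries, with groups that do not overlap and a mean of at least 5 CPM, leaving out predicted genes, pseudogenes and receptor segments. The rule adds 4 members per list, by smallest p, and 19 genes by name; further list members were chosen after their values were seen. Some genes that the rule names are not reported here.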

Additional observations from a re-analysis of the deposited data

Results flagged for a closer look

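These results were singled out because the gap between TFR and TFH cells differed, by a test of the difference itself, between treated and control mice or from the gap between Treg and Tconv cells. Each value is that difference on the log2 scale with its sign, so a higher value need not be a wider gap.

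Between treated and control mice, among the named genes of large difference were Cdkn3 (11.86), Cx3cl1 (9.39), Alpl (7.49), Fkbp2 (6.81) and Spaca6 (6.07) on the higher side. On the lower side were Cit (-11.55), Slc7a10 (-11.04), Arhgap33 (-10.89) and Mypop (-10.69). One control group was at or near 0 for each of these 9: the control TFR means of Cdkn3, Cx3cl1, Alpl, Fkbp2 and Spaca6 were 0, 0, 0.0323, 0.0726 and 0.0363 CPM, and the control TFH means of the other 4 were 0. The fitted sizes are therefore no measure of a fold. The other genes were Tnfrsf4 (1.22), Tnfrsf18, which the gate used (1.07), Il2ra (1.89), Bcl6 (-0.91), Il21 (-1.53) and Tcf7 (-0.61). Il21 did not pass without the libraries that hold kidney RNA (adjusted p = 0.149 by edgeR).

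Against the gap between Treg and Tconv cells, the value was higher for Igfbp4 (4.87), Vipr1 (3.12), Ccr7 (3.09), Ifngr2 (3.04), Slc16a5 (2.49) and Cd4 (0.37). It was lower for Gfra4 (-7.19), Slc7a10 (-6.75), Il1rn (-6.07), Abcc3 (-5.61) and Rassf6 (-5.46), whose Tconv means were 0, 0.0278, 0, 0.0857 and 0.027 CPM, so these sizes too rest on a group near 0. Genes of the regulatory and follicular programs had lower values as well: Ikzf2 (-3.25), Pdcd1 (-2.95), Cxcr5 (-2.34), Foxp3 (-2.07), Il2ra (-1.997), Ctla4 (-1.54), Bcl6 (-1.32), Tnfrsf4 (-1.05) and Icos (-0.66). So did the cytokines Il4 (-2.44), Il10 (-2.06), Il21 (-1.91) and Ifng (-1.07), and Notch1 (-0.52). Cxcr5 and Pdcd1 were part of the sort: both follicular subsets were gated as CXCR5+ with high PD1. Treg and Tconv cells were gated as CXCR5-, and no gate on PD1 is stated for them. The values of both genes are therefore tied to the sort and are no findings. How far the gates set their RNA levels was not tested.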

How the results depend on the processing

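The 6594 genes called between TFR and TFH cells became 1798 in the fit over all 24 libraries, and 29 of the 101 named genes were not called there; no named gene changed direction in that fit. The common biological coefficient of variation was 0.486 in the fit of 12 libraries, 0.187 without the kidney libraries and 0.617 over all 24. The other alternatives to the main comparison, apart from single libraries left out, gave 4683 (only the 6 libraries compared) to 7854 genes (without the kidney libraries and treated Treg 3, added after the data were seen). Leaving out 1 library gave 5432 (without TFR 3) to 7329 (without TFH 3). The difference between treated and control mice, 1325 genes, became 3098 with DESeq2 and 462 without the kidney libraries, and 660 (without treated TFR 3) to 2328 (without control TFH 3) with 1 library left out; without receptor segments, haemoglobin and mitochondrial genes 713 of its 1293 calls were higher. The difference from Treg against Tconv, 6178 genes, ranged from 5094 (without treated Treg 1) to 6763 (without treated TFH 3) with 1 library left out. The causes were not tested. Pdcd1 and Cd4, not called, turned sign without TFH 1 (0.00077 and 0.023) and without TFR 1 (0.041 and 0.046), and their values with 1 library left out ran from -0.081 to 0.041 for Pdcd1 and from -0.0964 to 0.0463 for Cd4.

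With the replicate number as a block, the 3 counts were 6090, 924 and 5589, and the block changed the call of 0 of the 101 named genes. Nothing in the labels says that a number marks a shared mouse or day, and the deviations cannot show it, since they follow the kidney RNA: those of same-numbered TFR and TFH libraries correlated at -0.786, 0.704 and -0.803, and TFR 1 correlated best with TFH 3 (0.897), the other library with kidney RNA.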

Other observations

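Immunoglobulin V segments were left out of the naming rule. Of 125 tested, 42 were called higher and 35 lower in TFR cells by edgeR (61.6%, against 36.8% of all genes). Correlations were taken over segments with at least 30 reads summed over the 6 TFR and TFH libraries. These were also 125, a set not identical to those tested. The rule can take in segments found in 1 group alone. Over them the Spearman correlation of CPM was 0.962 to 0.97 between TFR libraries and 0.918 to 0.932 between TFH libraries. Between a TFR and a TFH library it was 0.181 to 0.237. Of 95 T cell receptor V segments tested, 9 were higher and 8 lower (17.9%). Over 93 segments that met the same read rule the correlation was 0.94 to 0.962 within TFR, 0.853 to 0.862 within TFH and 0.808 to 0.834 between them. These correlations are descriptions across segments of libraries that may share mice.

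Some V segments and predicted genes, chosen after their values were seen, were found in all libraries of 1 group and hardly in the other. Igkv4-57 was at 10.9, 13.2 and 12.2 CPM in TFR 1, 2 and 3 and at 0.23, 0 and 0 CPM in TFH 1, 2 and 3. Igkv14-111 was the reverse, at 0.0658, 0.0382 and 0 CPM in TFR and 13.6, 9.6 and 11.51 CPM in TFH libraries. The predicted gene Gm10800 was at 2.39, 1.55 and 1.57 CPM in TFR and 110.3, 126 and 116 CPM in TFH libraries, and Gm26870 at 1.1, 1.76 and 1.65 and 41.9, 51.1 and 38.4 CPM. The libraries with kidney RNA lie with the others of their group for all 4.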
